A study of Bos taurus with 6 samples.

Results

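The windows at the 3′ ends of bovine genes were followed in the MIRA-Seq data of dermal fibroblasts. The files divide the genome into sequential windows of 3 kb and print the symbol and strand of a gene beside each window that the gene covers, and 1 label at most stands beside a window. For every label on chromosomes 1 to 29 that covered 5 or more windows, the last window in the direction of transcription was taken, together with the first and second windows beyond it where these carried no label. This gave 12337 gene ends, with 12294 different labels, and 29210 windows of the 837275 on these chromosomes and of the 902984 in the files. They comprise 12337 last windows and 16873 unlabelled windows past the end, 690 of which lie past the ends of more than 1 gene. The genes covered between 5 and 706 windows, with a median of 13. Each was compared with its own middle window, and 5379 genes whose 6 windows past the end were all unlabelled were also compared with the fourth to sixth of these.

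Cultures of dermal fibroblasts came from skin of 3 Holstein heifers, with every animal sampled at the ages of 5 and 16 months, which gave 3 libraries per age and 6 in all. All were at passage 5 and untreated, with no exposure to LPS, and each library is 1 culture of 1 animal at 1 age. According to the methods, the animals had been picked for a middling response of their fibroblasts to LPS. The study asked whether methylation differs between these ages within an animal. The cell type is as labelled, since reads of genomic DNA give no expression markers by which it could be checked, and age and date of sampling cannot be told apart.

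In MIRA, proteins with a methyl-binding domain pull down sonicated DNA, so that the reads of a window rise with methylation and also with the number of CpG sites that the window holds. Methylation in mammals is low at most CpG-rich promoters and is laid down along the bodies of genes, where the histone mark H3K36me3, which follows the elongating polymerase, recruits DNMT3B. At the 3′ end the last exons and the untranslated region are followed by the polyadenylation site, beyond which the polymerase is released and intergenic sequence begins. Because the windows are 3 kb long, a last window can hold the gene's end anywhere within it, and part of it can be intergenic.

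The libraries held 19.9 to 43.6 M counted reads each, and last windows held a median of 5 to 17 reads per library. The windows at gene ends took 2.65% and 2.83% of the counted reads of animal 3 at the younger and older age, against 3.98% to 4.10% in animals 1 and 2. Animal 3 therefore stood apart at gene ends at both ages, and the main mean differences and the windows called by age are also given without it below.

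The mean MIRA-Seq level was higher towards the end of the gene, highest in its last labelled windows and lower from the first window past the end. Levels are means over genes of RPKM, the reads of a window scaled to its length and to the library's matched reads, without the 1% of windows with the highest RPKM. Over all 12337 genes the mean was 0.135 ± 0.024 RPKM in the first window (SD, n = 6 libraries), 0.190 ± 0.033 RPKM in the middle window, 0.273 ± 0.055 RPKM in the window before the last and 0.276 ± 0.060 RPKM in the last. Over the genes whose window past the end carried no label, it was 0.148 ± 0.024 RPKM in the first window past the end (9296 genes) and 0.126 ± 0.019 RPKM in the second (8267 genes). Over all windows of chromosomes 1 to 29 it was 0.101 ± 0.015 RPKM, so that last windows had 2.71 ± 0.42 times this level. With the highest 1% of windows kept, the means were closer, at 0.364 RPKM in last windows and 0.199 RPKM over all windows.

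In single libraries the last windows had 0.328 and 0.32 RPKM in animal 1, 0.309 and 0.298 RPKM in animal 2 and 0.191 and 0.209 RPKM in animal 3, each at 5 and then at 16 months. The middle windows of the same libraries had 0.223 and 0.212 RPKM in animal 1, 0.217 and 0.184 RPKM in animal 2 and 0.142 and 0.163 RPKM in animal 3. The last windows were higher than the middle windows in 6 of 6 libraries, although the ranges overlap between libraries because animal 3 was low at both positions. Within libraries the ratio of the last to the middle windows was 1.44 ± 0.12, and it was lowest in animal 3 (1.34 and 1.28) and highest in the 16-month library of animal 2 (1.63). Without animal 3 the last minus the middle windows was 0.105 ± 0.0097 RPKM (SD, n = 4 libraries), against 0.0857 ± 0.031 RPKM with it. No test was made of these means, for which the smallest p of an exact sign-flip test over 3 animals would be 0.25.

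**Figure D1:**
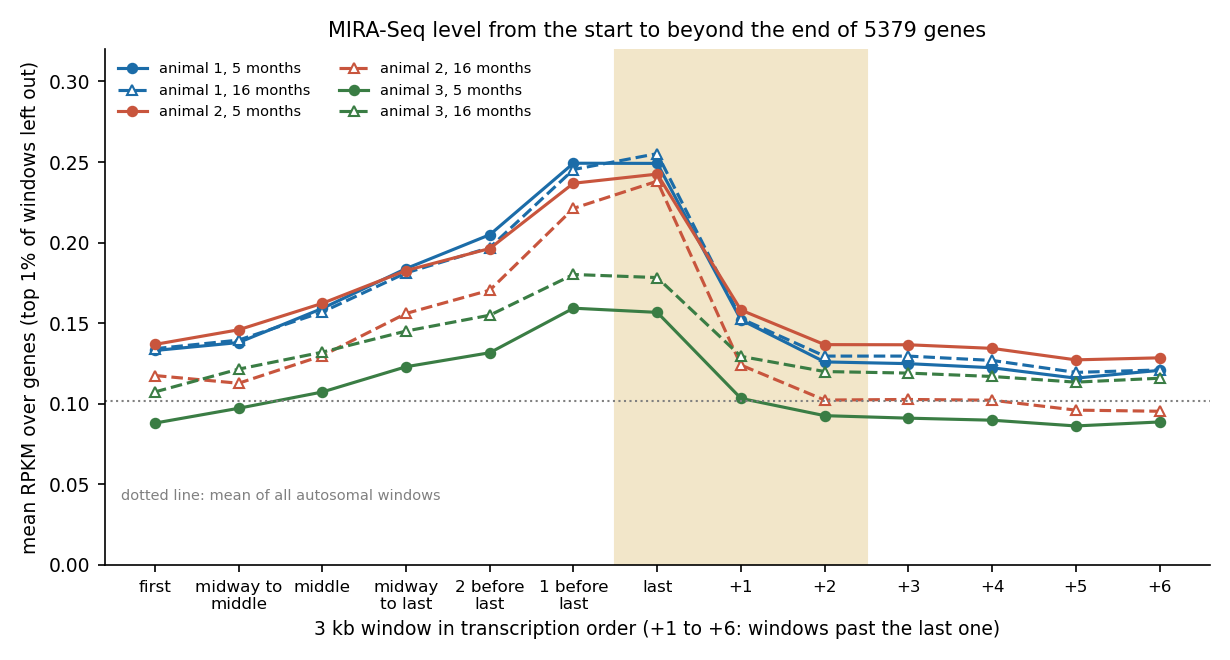
Mean RPKM (vertical axis) in 13 windows from the first window of a gene to the sixth window past its end (horizontal axis), for the 5379 genes whose 6 windows past the end carried no label. Each line is 1 library, colours are animals, solid lines 5 months and dashed lines 16 months, the shaded area marks the last window and the first 2 past the end, and the dotted line is the mean of all windows on chromosomes 1 to 29. Every library is higher in the last window than in the middle and than in windows 4 to 6 past the end.

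For the 5379 genes with 6 unlabelled windows past the end, the means without the highest 1% of windows reached a plateau within 2 windows of the end. They were 0.220 ± 0.042 RPKM in the last window, 0.137 ± 0.021 RPKM in the first past the end, 0.118 ± 0.017 RPKM in the second and 0.112 ± 0.016 RPKM over the fourth to sixth (SD, n = 6). The last window had 1.96 ± 0.31 times the level of the fourth to sixth, from 1.55 to 2.43 times in the 6 libraries. The first window past the end still had 1.22 ± 0.06 times that level, and the second had 1.05 ± 0.01 times, each above 1 in 6 of 6 libraries. This depended on leaving out the highest 1% of windows. With them kept, the first 2 windows past the end had 0.166 and 0.156 RPKM, below the 0.179, 0.195 and 0.168 RPKM of the fourth to sixth. The last window was still higher, at 0.265 RPKM. From the last window to the first past the end the level was 0.628 ± 0.069 times as high. Without animal 3 the last window minus the fourth to sixth was 0.129 ± 0.012 RPKM, against 0.108 ± 0.034 RPKM with it. Between the window before the last and the last there was no step, with a ratio of 1.01 ± 0.03 over all genes that was above 1 in 3 of 6 libraries.

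The difference from the middle was found on 29 of 29 chromosomes, in all 6 libraries of each. The ratio of the mean levels was lowest on chromosome 26 (1.26), had a median of 1.45 and was highest on chromosome 28 (1.81). Last windows themselves ranged from 0.148 ± 0.020 RPKM on chromosome 9 to 0.540 ± 0.138 RPKM on chromosome 25. Genes on the plus and the minus strand had the same ratio, 1.44 ± 0.12 for the 6277 genes of the plus strand and 1.44 ± 0.12 for the 6060 of the minus strand.

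Single genes differed widely from these means. Counts of the last and the middle window were summed over both libraries of an animal and compared within animals by edgeR's quasi-likelihood test. Of the 12337 genes, 5693 had the mean of 0.5 CPM, the reads of a window scaled to the library size, needed for this test, and 3879 of them passed both limits for a call, an FDR below 0.1 and at least a 2-fold difference (68.1%). The last window was higher in 2827 genes (49.7%) and lower in 1052 (18.5%), with a median log2 difference of 0.98 over the genes tested. Without animal 3 the median was 1.16. Both windows of a gene come from the same library, so that only the library size was used for scaling. TMM factors over the columns, which centre the typical gene near no difference, brought the median to 0.13 and gave 2043 genes higher and 1733 lower. Without a filter on low counts, 4667 of 12327 genes were called higher and 2685 lower, and over all 12337 genes the RPKM of the last window was higher in all 6 libraries for 4221 genes (34.2%) and lower in all 6 for 2283 (18.5%).

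Other positions in the gene were compared in the same way, as a choice made after the profile was seen. The window midway between the middle and the last was higher than the middle in 37% of 4915 genes tested and lower in 23.3%. The window midway between the first and the middle was higher than the middle in 24.5% of 4504 genes and lower in 37.9%. The last window was higher than the window before it in 28.4% of 6136 genes and lower in 29.2%, with a median log2 difference of -0.04. Calls between neighbouring windows were thus also frequent, and evenly divided.

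Whether a window holds a coding exon, as the files mark it, went with these differences. A coding exon was marked in 72.4% of last windows and in 42.8% of middle windows. Where it was in the last window only (4813 genes), the last window had 0.307 ± 0.068 RPKM and the middle 0.132 ± 0.020 RPKM, a ratio of 2.33 ± 0.42. Where it was in the middle only (1162 genes), the last window had 0.182 ± 0.036 RPKM and the middle 0.242 ± 0.044 RPKM, a ratio of 0.752 ± 0.037, below 1 in all 6 libraries. The direction of the difference thus turned with the position of the coding exon. With a coding exon in both windows (4116 genes) the ratio was 1.15 ± 0.06 and with none in either (2246 genes) it was 1.37 ± 0.11, each above 1 in 6 of 6 libraries.

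The tests showed the same order. Of the genes tested, 69.8% were called higher at the end and 7.65% lower where the coding exon was in the last window only, and 19.2% and 45.0% where it was in the middle only. With coding exons in both windows 36.5% were called higher and 22.9% lower, and with none in either 50.3% and 19.3%. The number of CpG sites in the windows could not be counted, since no genome of this build was used, and its part in the differences was not tested.

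**Figure D2:**
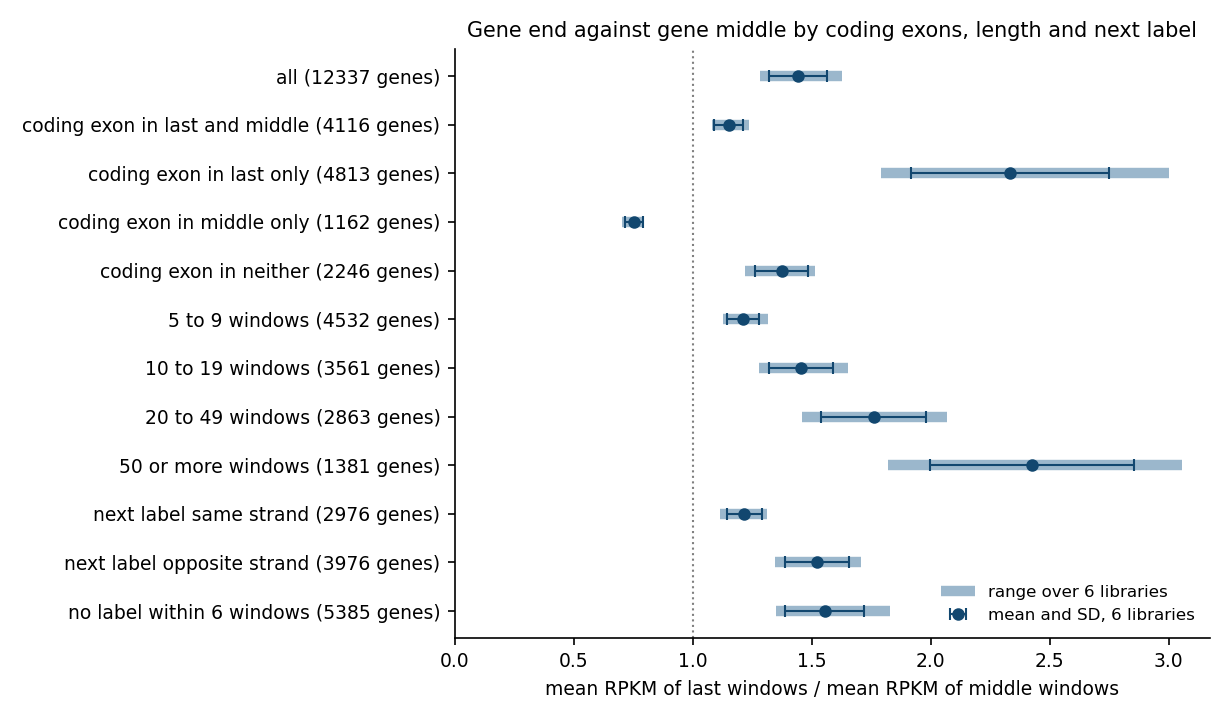
Ratio of the mean RPKM of last windows to that of middle windows (horizontal axis) for all genes and for genes divided by coding exons, by the number of windows they cover and by the next label within 6 windows past the end (vertical axis). Points and thin bars are means and SD over 6 libraries, thick bars the range, and the dotted line marks equal levels. Only the genes with a coding exon in the middle window alone lie below 1, and the ratio is higher in each class of longer genes.

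Longer genes had a larger ratio of end to middle. Both levels were lower in each class of longer genes, and the middle more so than the end. For genes of 5 to 9, 10 to 19, 20 to 49 and 50 or more windows, the last windows had 0.310, 0.278, 0.243 and 0.232 RPKM and the middle windows 0.255, 0.190, 0.138 and 0.0958 RPKM. The ratio was 1.21 ± 0.07 in the shortest class and 2.43 ± 0.43 in the longest. The share of middle windows with a coding exon was lower in the same order, from 56.5% to 14.0%, while that of last windows stayed between 68.9% and 74.7%. Levels past the end hardly differed with length, at 0.148 RPKM in the shortest class and 0.136 RPKM in the longest for the first window past the end.

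The neighbouring gene also went with the level at the end. Where the next label within 6 windows was of a gene on the opposite strand, so that both genes run towards each other (3976 genes), the last window had 0.355 ± 0.085 RPKM and the first unlabelled window past the end 0.186 ± 0.034 RPKM. Where the next gene was on the same strand (2976 genes) these were 0.277 ± 0.062 and 0.141 ± 0.023 RPKM, and with no label within 6 windows (5385 genes) 0.220 ± 0.042 and 0.137 ± 0.021 RPKM. The ratio of the last to the middle window was lowest for genes followed by one on the same strand (1.22 ± 0.07), against 1.52 ± 0.13 for converging genes and 1.55 ± 0.16 for genes with no near label.

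The largest differences upwards at the end were found in genes whose middle window had almost no reads. RANBP1 encodes a regulator of the Ran GTPase, and its last window on chromosome 17 (75007794 to 75010793, minus strand, UMD v3.1) had 1.31 and 1.07 RPKM in animal 1, 1.27 and 1.09 RPKM in animal 2 and 0.586 and 0.602 RPKM in animal 3, at 5 and 16 months. Its middle window had 0 reads in every library against 861 at the end. In reads the end was thus at least 287-fold higher (taking 3 reads over the 6 libraries as the limit of a count of 0). No library of one position overlapped those of the other. Such empty windows were rare, with 88 of the 29210 windows at gene ends at 0 reads in all 6 libraries. Whether reads could be placed in them was not tested, so that this bound and those below compare reads and not methylation. For MCM4, a subunit of the replicative helicase, the bound on the same basis was 95.7-fold, with 0.234 to 0.406 RPKM at the end, and the labels LOC100847838 and LOC782039 had bounds of 208-fold and 118-fold.

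For BDKRB2, the bradykinin B2 receptor, 2863 reads stood in the last window (chromosome 21, 62741663 to 62744662) against 3 in the middle, with 1.86 to 4.54 RPKM at the end. SOX10, a transcription factor of the neural crest lineage, had 1111 reads in its last window, with a lowest value of 0.670 and a highest of 1.66 RPKM, and 1 read in its middle. TRIM67 had 1020 reads at the end and 1 in the middle. All 7 genes were picked among those called in edgeR's quasi-likelihood test, with the largest adjusted p at 1.4e-05 for LOC782039. By the same rule each had 1 sign in all 6 libraries. Their calls and lack of overlap thus describe them and support nothing further. Of the 7, 5 had a coding exon in the last window and none in the middle. In MCM4 the highest depth at a single position reached 0.656 of the reads of the last window, in the library where this share was largest. All such shares are the largest among libraries with 20 or more reads in the window, and not shares of the reads of all 6. A value near 0 means reads spread over the window and a value near 1 a single stack. It was between 0.137 and 0.413 in the others.

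The largest differences downwards were found in genes whose last window had few reads, between 1 and 26 over the 6 libraries. The middle window of RGS7, a regulator of G protein signalling, had 16.6 to 24.4 RPKM and its last window on chromosome 16 (36693181 to 36696180) 0 to 0.032 RPKM, with a log2 difference of -10.38 ± 0.21 (SE). PIK3CG, the catalytic subunit of phosphoinositide 3-kinase gamma, had 12.1 to 18.5 RPKM in the middle and 0 to 0.044 RPKM at the end (log2 difference -9.32 ± 0.20). UBN2, a protein of the HIRA histone chaperone complex, had 6.37 to 30.1 RPKM in the middle and 0 to 0.049 RPKM at the end (-9.10 ± 0.22). In none of these genes did the libraries of both positions overlap, which describes genes picked by their calls and supports nothing further. Reads were stacked in these middle windows in at least 1 library, with the highest depth at 0.639, 0.386 and 0.623 of its reads.

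INPP5F, an inositol phosphatase whose locus is imprinted in mouse and human, had 1.91 and 1.93 RPKM in its middle window in animal 1, 5.22 and 7.68 RPKM in animal 2 and 2.17 and 2.15 RPKM in animal 3, against 0 to 0.019 RPKM at the end. Its middle window carried a coding exon, and in 1 library its reads were almost a single stack (0.945). The level in animal 2 was above those of the others at both ages. How far it rests on 1 position was not counted for each library. The remaining genes of the 8 were PDE8B, a cAMP phosphodiesterase (497 reads in the middle and 1 at the end), GPBP1, LOC100336979 and LOC100297914. The log2 differences were -7.95 ± 0.58 for GPBP1, -8.11 ± 0.50 for LOC100336979 and -7.95 ± 0.41 for LOC100297914. In 1 library the highest depth in the middle window was 0.328, 1.04, 0.353 and 0.831 times the reads for these 4 genes in the order named.

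Against the fourth to sixth windows past the end, most of the genes that could be tested were higher in the last window. Of the 5379 genes with 6 unlabelled windows, 2084 passed the filter and edgeR's quasi-likelihood test called 1561 (74.9%), 1219 higher (58.5%) and 342 lower (16.4%), with a median log2 difference of 1.53. TMM factors gave 1261 higher and 318 lower with a median of 1.66. Without a filter 1854 genes were called higher and 1450 lower. Over all 5379 genes the last window was higher in all 6 libraries for 1817 (33.8%) and lower in all 6 for 1355 (25.2%).

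For the step across the end itself, 8087 genes had both first windows past the end unlabelled, and 3248 were tested. The first 2 windows past the end were lower than the last window in 1823 genes (56.1%) and higher in 395 (12.2%), which makes 2218 calls (68.3%), with a median log2 difference of -1.29. TMM factors gave 1637 lower and 474 higher with a median of -1.02, and without a filter 2799 were lower and 1825 higher. Genes with a coding exon in the last window were lower past the end in 60.7% of those tested, and genes without one in 41.3%.

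**Figure D3:**
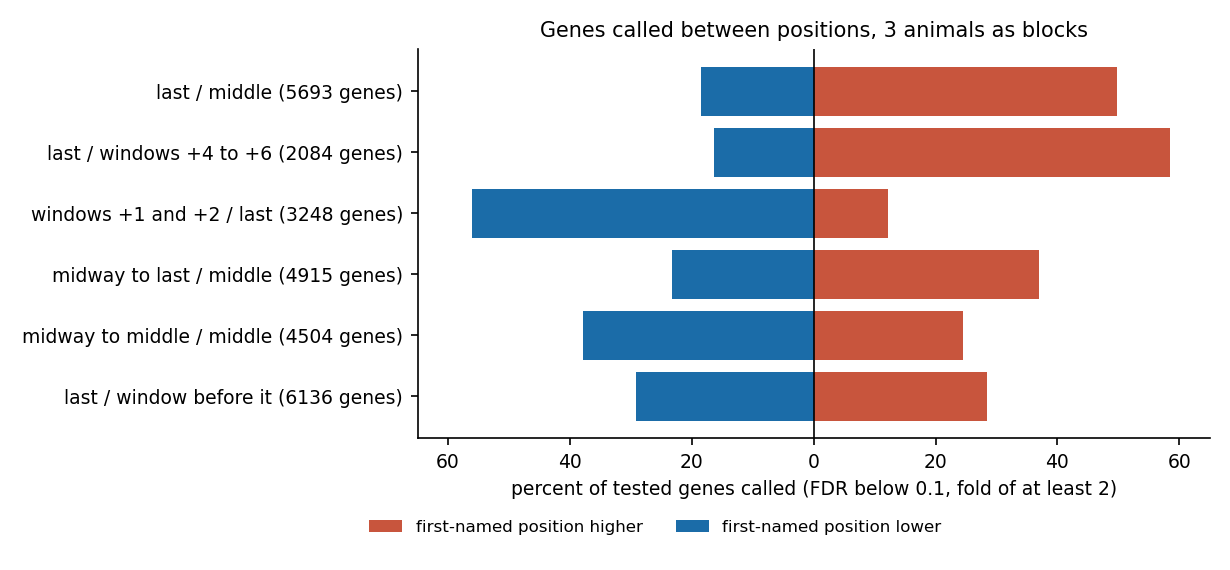
Percent of tested genes (horizontal axis) called higher, to the right, or lower, to the left, at the first-named of the positions compared (vertical axis, with the number of genes tested), at an FDR below 0.1 and at least a 2-fold difference in edgeR's quasi-likelihood test. The last window is mostly higher than the middle and than windows 4 to 6 past the end, the windows past the end are mostly lower than the last, and the last window and the one before it differ about as often in each direction.

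Stacked reads were frequent in windows past the end, in genes with and without a call. A depth above 0.3 of the reads in 1 or more libraries was found in the last window for 39.1% of the 2827 genes higher at the end than in the middle. In the middle window it was found for 42.8% of the 1052 lower ones. It was found in at least 1 of the windows past the end for 80.7% of the 342 genes that were higher there than at the end, and for 71.6% of the 395 genes higher in the first 2 windows past the end. Among genes that were not called it was found in 37.8% of last windows in the comparison with the middle, and in the first 2 windows past the end for 62.3%. The comparisons past the end count more windows for a gene, and the part of stacked reads in the calls was not tested apart from leaving such genes out. Without any gene with stacked reads, 1130 of 2312 genes were higher at the end than in the middle and 368 lower, 264 of 396 were higher than the fourth to sixth windows and 52 lower, and 450 of 787 were lower past the end and 75 higher.

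Among the genes with the largest steps, ZNF282, a KRAB zinc finger gene, had 0.636 and 1.25 RPKM in animal 1, 0.882 and 1.17 RPKM in animal 2 and 0.660 and 0.800 RPKM in animal 3 in its last window on chromosome 4 (113149205 to 113152204). Windows 4 to 6 past its end had 0 reads in every library, so that the last window was at least 822-fold higher in reads per window. Here too, whether reads could be placed in the empty windows was not tested. The zinc finger gene ZNF76 on chromosome 23 (9199593 to 9202592) was at least 347-fold higher at its end than in these windows, and the level had dropped already in the first 2 windows past the end, with 5 reads there against 347 in the last window. TMEM132D had a bound of 230-fold, with 0.083 to 0.421 RPKM at the end. ABCA10, a lipid transporter of the ABC family, had 0.629 to 1.22 RPKM at the end and 5 reads in the 3 windows beyond, and MTNR1B, the melatonin receptor type 1B, had 1.65 to 4.20 RPKM at the end and 0.007 to 0.025 RPKM beyond, a log2 difference of 7.65 ± 0.39. Libraries of both positions did not overlap in any of these 5 genes, which were picked by their calls, so that this supports nothing further. The highest depth in 1 library was between 0.178 and 0.317 of the reads of these last windows.

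In the opposite direction, windows 4 to 6 past the end of RCSD1 on chromosome 3 had 31.9 to 135 RPKM and its last window (1055810 to 1058809) 0.010 to 0.084 RPKM, a log2 difference of -10.74 ± 0.44. Animal 3 had 31.9 and 34.2 RPKM there and the other animals 94.1 RPKM or more. ANGEL2 had 0.510 to 0.773 RPKM beyond its end, with 2 reads in its last window. RAB32, a small GTPase, had 14.1 to 21.3 RPKM beyond its end and 0 to 0.032 RPKM at it, and PDE5A, the cGMP phosphodiesterase, 24.2 to 39.7 RPKM and 0.083 to 0.322 RPKM. Past MED1, a subunit of Mediator, the level was high from the first window on, with 7.08 to 11.5 RPKM in the first 2 windows, 4.23 to 5.37 RPKM in the fourth to sixth and 0 to 0.029 RPKM in the last window of the gene. SNRPB2, of the U2 spliceosomal particle, and LOC616519 had 7.57 to 20.8 and 8.68 to 38.1 RPKM in the first 2 windows past the end, with 30 and 3 reads in the last window. Animal 3 was the highest for both, with 20.8 and 20.5 RPKM for SNRPB2 and 38.1 and 29.2 RPKM for LOC616519. In 1 library the highest depth reached 0.845 of the reads past SNRPB2 and 0.571 past LOC616519. Past MED1 it reached 0.636 in the first 2 windows and 0.553 in the fourth to sixth. Beyond the ends of RCSD1, RAB32, ANGEL2 and PDE5A it reached 0.488, 0.624, 0.405 and 0.572. In the sharpest drops past the end the labels LOC789131 and LOC789254 had 2.04 to 3.89 and 0.99 to 3.00 RPKM in the last window. They had at most 0.023 RPKM in the first 2 windows beyond. The highest depth in their last windows reached 0.668 and 0.15 of the reads in 1 library.

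The last windows with the highest levels of all were those of ABCA2, KIF19, LOC100847265, ABCA5 and TOLLIP. ABCA2, a lipid transporter, had 6.95 and 7.43 RPKM in animal 1, 3.04 and 4.15 RPKM in animal 2 and 12.5 and 11.7 RPKM in animal 3, on chromosome 11 from 106221985 to 106224984. It was highest in animal 3, in contrast to the mean over gene ends, and in 1 library the highest depth was 0.890 of the reads. KIF19, a kinesin, had 4.59 to 12.7 RPKM at its end and 0.367 to 1.41 RPKM in its middle (log2 difference 3.20 ± 0.18). ABCA5, another ABC transporter, had 5.74 to 8.42 RPKM at its end and 0.992 to 1.94 RPKM in its middle. LOC100847265 had 4.32 to 11.1 RPKM at its end, in 1 library almost in a single stack (0.971), and 11 reads in its middle. TOLLIP, an inhibitor of signalling by Toll-like receptors, had 2.59 to 8.96 RPKM at its end on chromosome 29 (51333219 to 51336218) and 1.59 to 5.48 RPKM in its middle. The log2 difference of TOLLIP was 0.59 ± 0.11, under the fold needed for a call, and its reads were spread over the window (0.095).

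Lists of genes that bear on fibroblasts, on the LPS response and on methylation were read by their counts. Beside them stand 49.7% higher, 18.5% lower and a median of 0.98 over all genes tested. Members named were picked among the called genes, so that their calls and lack of overlap support nothing further. Of 22 genes of the TLR4 and LPS response with an end, 7 were tested and 3 were higher at the end, 1 lower, with a median log2 difference of 0.67. Over all 22 the mean was 0.237 RPKM in the last and 0.244 RPKM in the middle window, with the last higher in 2 of 6 libraries, and 7 genes were higher and 7 lower at the end in all 6 libraries. NFKB1, a subunit of NF-kappa B, had 0.985 and 1.04 RPKM in animal 1, 0.721 and 1.17 RPKM in animal 2 and 0.447 and 0.404 RPKM in animal 3 at its end and 0 to 0.071 RPKM in its middle, with no overlap (log2 difference 4.79 ± 0.47, adjusted p = 9.0e-06 in edgeR's quasi-likelihood test). The kinase MAPK8 and the adaptor TRAF6 were higher at the end by 3.60 ± 0.46 and 2.28 ± 0.55 on the log2 scale. IRAK2, a kinase-like adaptor of the receptor complex, was lower at the end by a log2 difference of -1.12 ± 0.36, and its positions overlapped between libraries, with 0.028 to 0.187 RPKM at the end and 0.074 to 0.342 RPKM in the middle.

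Of 34 matrix genes of dermal fibroblasts, 18 were tested, 7 higher and 2 lower at the end, with a median of 0.53. LOXL2, which cross-links collagen, had 0.602 to 1.77 RPKM at the end and 0.010 to 0.064 RPKM in the middle, and SPARC, a collagen-binding protein, 0.144 to 0.400 and 0 to 0.032 RPKM. COL6A1 was high at both positions, with 1.28 to 3.94 RPKM at the end and 0.445 to 1.49 RPKM in the middle, overlapping between libraries because animal 3 was low at both. COL12A1 was higher at the end by 2.75 ± 0.41.

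In a list of 16 genes of DNA methylation and associated chromatin factors, 11 were tested, 5 higher and 1 lower, with a median of 0.48. DNMT1, the maintenance methyltransferase, had 2.35 and 2.56 RPKM in animal 1, 2.74 and 3.42 RPKM in animal 2 and 1.12 and 1.07 RPKM in animal 3 at its end and 0.051 to 0.218 RPKM in its middle, a log2 difference of 3.68 ± 0.40. ZBTB38, a reader of methylated DNA, and TET3, which oxidises methylcytosine, were higher at the end by 3.8 ± 0.42 and 1.41 ± 0.25. EHMT2, which methylates histone H3K9 and not DNA, was the lower one, with 0.165 to 0.431 RPKM at the end and 0.992 to 2.91 RPKM in the middle.

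Cadherins and protocadherins, adhesion genes with long introns in part, had 8 of 13 tested genes higher at the end and 3 lower, with a median of 2.22 (35 genes with an end). CDH4 had 1.22 to 3.70 RPKM at the end and 0.096 to 0.287 RPKM in the middle, and CDH23 0.465 to 1.33 and 0 to 0.097 RPKM, while PCDH1 and CDH20 differed by 3.46 ± 0.33 and 4.29 ± 0.46. Of 78 tested genes named ZNF (170 with an end) 37 were higher and 17 lower, with a median of 0.90. ZNF329 had 1.16 to 1.49 RPKM at the end and 0 to 0.020 RPKM in the middle, and ZNF133, ZNF629 and ZNF71 were higher by 5.25 ± 0.35, 4.68 ± 0.29 and 3.82 ± 0.17. Of 20 tested homeobox developmental genes (29 with an end) 9 were higher and 3 lower, with a median of 0.70. PRRX2, PBX3 and LHX9 were higher at the end by 3.24 ± 0.40, 2.86 ± 0.44 and 2.29 ± 0.39, and PAX2 had 0.032 to 0.142 RPKM at the end against 0.25 to 0.636 RPKM in the middle.

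Of 10 tested imprinted genes (16 with an end) 1 was higher at the end and 3 were lower, with a median of 0.03. L3MBTL1 was the higher one, with 0.277 to 0.985 RPKM at the end and 0 to 0.109 RPKM in the middle. The noncoding MEG3 was lower at the end by a log2 difference of -1.53 ± 0.37 and MEST by -1.12 ± 0.34, beside INPP5F above. No test of a list was made. Over all members, tested or not, the last window was higher in all 6 libraries for 12 and lower for 4 of 34 matrix genes, 7 and 2 of 16 in the methylation list, 13 and 4 of 35 cadherins, 45 and 34 of 170 ZNF genes, 13 and 4 of 29 homeobox genes and 4 and 5 of 16 imprinted genes, beside 34.2% and 18.5% of all genes. Past the end, levels were lower in the first 2 windows than in the last for 10 of 14 tested matrix genes, 9 of 14 homeobox genes, 26 of 43 ZNF genes, 5 of 9 cadherins, 4 of 7 LPS response genes, 4 of 7 methylation genes and 3 of 7 imprinted genes, beside 56.1% of all genes tested. Against the fourth to sixth windows the last window was higher in 6 of 8 matrix genes, 8 of 10 homeobox genes, 14 of 28 ZNF genes, 4 of 6 cadherins, 2 of 5 LPS response genes, 5 of 7 methylation genes and 2 of 4 imprinted genes, beside 58.5%.

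No gene was called for a difference between the ages in its step from middle to end. Last windows averaged 0.276 RPKM at 5 months and 0.276 RPKM at 16 months, and the difference between last and middle was higher at 16 months by 0.0030 RPKM in animal 1 and 0.0231 RPKM in animal 2 and lower in animal 3 (-0.0030 RPKM). In the test of the difference of differences, edgeR's quasi-likelihood test called 0 of 5649 genes (0%), and 27 (0.478%) had a p below 0.05 before adjustment. The likelihood-ratio test of the same tool also called 0, and 41 had such a p. With terms for the end of each animal added, the quasi-likelihood test of edgeR again called 0 and 73 (1.29%) had such a p. These shares lie far below the 5% that a test of its nominal size gives where nothing differs, so that the test was conservative and its 0 calls do not show that the ages were alike. The animals differed in the sign of the change in the mean difference between end and middle. They also differed in sign in most other differences between positions, and shared it only in those given next, without a test. The last window minus the window before it was higher at 16 months by 0.0129, 0.0088 and 0.0019 RPKM in animals 1, 2 and 3. The first window past the end minus windows 4 to 6 was lower at 16 months in each animal, with changes of -0.0020, -0.0020 and -0.0011 RPKM. The ratio of the same windows changed by -0.023, 0.051 and -0.050, so that its sign was not shared.

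Single windows at gene ends were compared by age within animals by edgeR's quasi-likelihood test over the 104658 windows of the genome that reached 1 CPM in 3 or more libraries. Of the 29210 windows at gene ends 7162 passed, and 7 met the same limits for a call (0.0977%), beside 194 of all windows tested (0.185%). Of the 7, 6 were higher at 16 months (0.0838%) and 1 was lower (0.014%), beside 84 (0.0803%) and 110 (0.105%) of all windows. Before adjustment, 527 windows at gene ends (7.36%) and 7.1% of all had a p below 0.05. In the 4369 last windows tested the median log2 change at 16 months was 0.05 in animal 1, 0.06 in animal 2 and -0.09 in animal 3, so that the animals differed in its sign.

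The calls depended on single animals. Without animal 1 only 1 of 7373 windows tested at gene ends was called, that past TBX3. Without animal 2, 6 of 7633 were called, with 4 of the 7 among them. Without animal 3, 98 of 7074 were called, with all 7 among them, and 50 of the 98 were higher and 48 lower at 16 months. The share of all windows of the genome called was not counted in these or the other fits below. Whether such counts are particular to gene ends therefore cannot be told. The excess of higher windows among the 7 was thus not seen without animal 3. DESeq2 and TMM factors taken over all windows each called 3, those of TBX3, LOC100337252 and ARID1A. In edgeR's quasi-likelihood test with no term for the animal 0 were called, and 80 had a p below 0.05 before adjustment.

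The first window past the end of TBX3, a T-box transcription factor of limb and mammary development, showed the largest change. It lies on chromosome 17 (62367994 to 62370993), beyond a gene of 6 windows on the plus strand, and carries no label. It had 0.828, 0.464 and 0.650 CPM (scaled by TMM factors) in animals 1, 2 and 3 at 5 months and 4.01, 5.20 and 3.15 CPM at 16 months, from 14 to 18 reads per library at the younger and 62 to 168 at the older age. The ages did not overlap, and the log2 change was 2.67 ± 0.30 (SE; adjusted p = 2.8e-11 in edgeR's quasi-likelihood test). This SE and p, and those of the age windows below, rest mostly on a dispersion shared over windows. They do not measure the spread between the 3 animals. Only the 16-month libraries reached the 1 CPM of the filter, so the window was admitted by its higher age and the lack of overlap supports nothing further. The last window of TBX3 had 0.093 RPKM at 5 and 0.306 RPKM at 16 months on average and did not pass the filter, and the second window past the end, with 6 and 8 reads in all at 5 and 16 months, was too shallow for a comparison.

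ZIC4, a zinc finger transcription factor of neural development, also had its called window just past the end, on chromosome 1 (121892601 to 121895600). It had 1.79, 3.35 and 1.73 CPM at 5 months and 4.68, 5.94 and 3.81 CPM at 16 months. All 3 animals were higher, without overlap on this scale (log2 change 1.10 ± 0.23, adjusted p = 0.0061). In RPKM the ages overlapped, with 0.650 RPKM in animal 2 at 5 months above 0.513 RPKM in animal 3 at 16 months. The last window of the gene had 0.169 RPKM at 5 and 0.162 RPKM at 16 months and did not pass the filter. The second window past the end had a log2 change of 0.27 ± 0.41 and was not called.

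ARID1A, a subunit of the BAF chromatin remodelling complex, held the only window that was lower at 16 months, its last window on chromosome 2 (126997334 to 127000333, minus strand), with a coding exon. It had 2.21, 2.82 and 2.86 CPM at 5 months and 0.453, 0.446 and 0.914 CPM at 16 months, without overlap (log2 change -2.16 ± 0.38, adjusted p = 0.00043). Only the 5-month libraries reached the 1 CPM of the filter. The window before it had 0.984 RPKM at 5 and 0.538 RPKM at 16 months, lower in each animal, and the one before that 1.3 and 1.46 RPKM. The first of these was thus lower in the same direction as the called window and the second was not. Between 9 and 85 reads per library stood in the last window, and in 1 library the highest depth reached 0.5 of the reads.

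**Figure D4:**
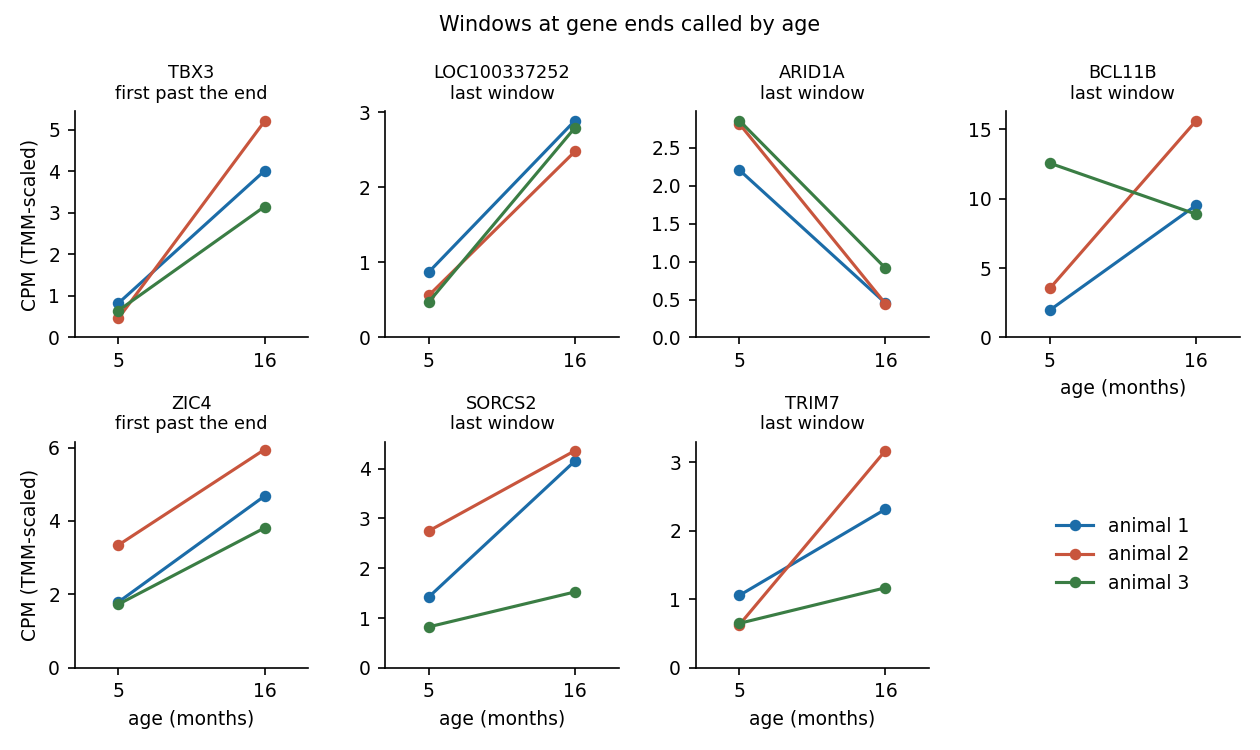
CPM scaled by TMM factors (vertical axes, each from 0) at 5 and 16 months (horizontal axes) in the 7 windows at gene ends called by age. Each line joins the 2 libraries of an animal. The windows of TBX3, LOC100337252, ARID1A, ZIC4 and TRIM7 do not overlap between ages on this scale, and animal 3 runs against the other animals for BCL11B.

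The last window of LOC100337252 on chromosome 11 (8944985 to 8947984) had 0.874, 0.563 and 0.476 CPM at 5 months and 2.89, 2.48 and 2.79 CPM at 16 months (log2 change 2.10 ± 0.37, adjusted p = 0.00032). The ages were apart in every animal, but only the 16-month libraries reached the 1 CPM of the filter. The second window past its end had a log2 change of 1.12 ± 0.36 in the same direction, which was not called (adjusted p = 0.25), and the window between them had 8 and 11 reads in all at the younger and older age.

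BCL11B, a zinc finger transcription factor of T cells and skin, had its called window at the gene end on chromosome 21 (65840663 to 65843662, minus strand). It had 1.98, 3.54 and 12.6 CPM at 5 months and 9.52, 15.6 and 8.89 CPM at 16 months. Animals 1 and 2 were higher at 16 months by 2.02 and 1.99 on the log2(CPM + 0.5) scale and animal 3 was lower (-0.48), so that the ages overlapped (log2 change 1.26 ± 0.26, adjusted p = 0.0051). The window before it averaged 0.792 and 1.05 RPKM at 5 and 16 months, and the first past the end 0.114 and 0.137 RPKM.

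The last window of SORCS2, a sorting receptor of the VPS10 family, had 1.43, 2.75 and 0.823 CPM at 5 months and 4.15, 4.36 and 1.52 CPM at 16 months on chromosome 6 (118926582 to 118929581). All 3 animals were higher at 16 months although the ages overlapped (log2 change 1.03 ± 0.27, adjusted p = 0.073). Its level was low for its surroundings, with 0.318 and 0.623 RPKM at 5 and 16 months beside 1.47 and 1.41 RPKM in the window before it and 2.23 and 2.01 RPKM in the first window past the end, which was not called (log2 change -0.13 ± 0.23). TRIM7, a ubiquitin ligase, had 1.06, 0.629 and 0.650 CPM at 5 months and 2.32, 3.17 and 1.17 CPM at 16 months in its last window on chromosome 7 (41717546 to 41720545). These values did not overlap (log2 change 1.46 ± 0.40, adjusted p = 0.0997). In RPKM the ages of TRIM7 overlapped, with 0.236 RPKM in animal 1 at 5 months above 0.157 RPKM in animal 3 at 16 months. Of the 7 windows, 5 did not overlap between ages in scaled CPM, and ZIC4 and TRIM7 among these 5 overlapped in RPKM. In 6 of the 7 the direction was the same in all 3 animals. Since each window was chosen by its call, these counts describe them and support nothing further.

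**Figure D5:**
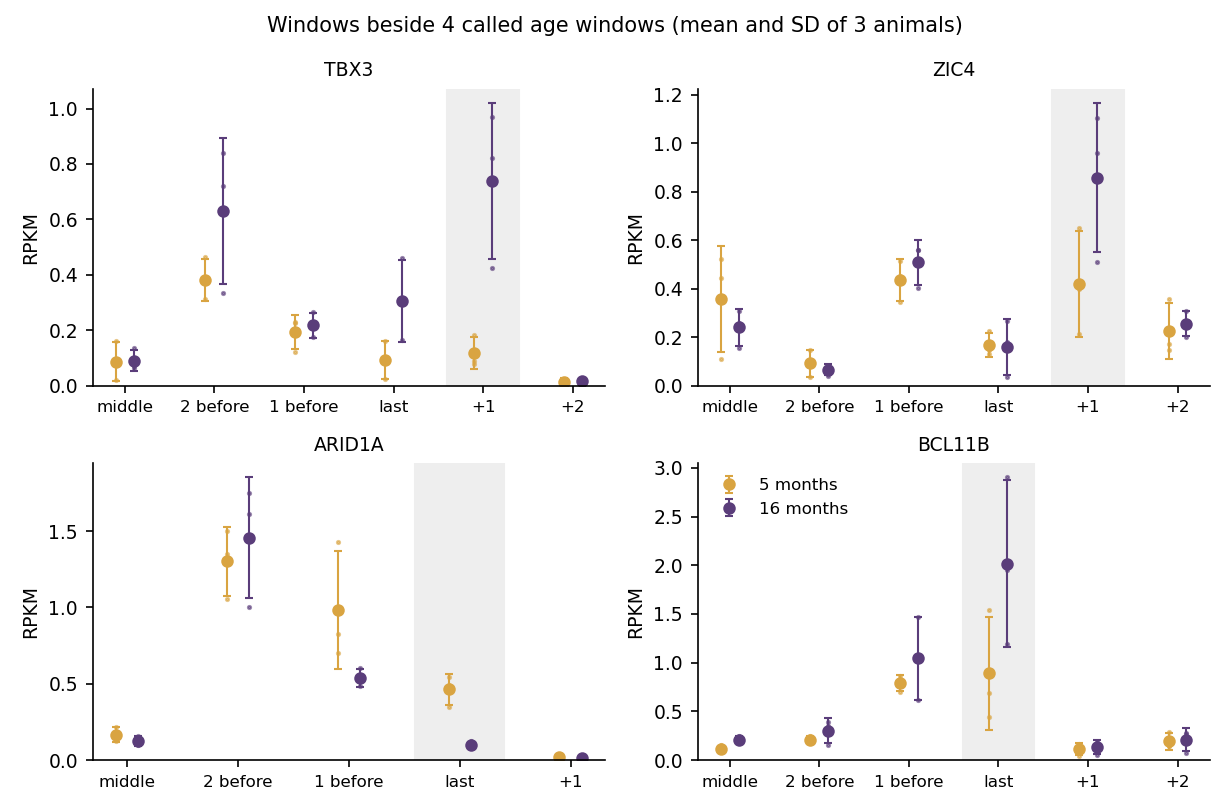
RPKM (vertical axes, each from 0) in the middle window, the last 3 windows and the unlabelled windows past the end (horizontal axes) of TBX3, ZIC4, ARID1A and BCL11B. Large points and bars are means and SD of 3 animals at 5 and 16 months, small points the libraries, and shading marks the called window. The called windows of TBX3 and ZIC4 are higher at 16 months, the next window past the end was called in neither, and in ARID1A the last window and the one before it are lower at 16 months.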

How the data were processed

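MIRA-Seq libraries of cultured dermal fibroblasts, 1 for each of 3 Holstein heifers and each age (5 and 16 months), were analysed. After quality filtering and trimming, the authors mapped reads with NextGENe v. 2.3.4 against UMD v3.1 and deposited raw read counts of sequential windows of 3 kb. The deposited files also give the highest depth of coverage of a window, an unscaled signal that was used only to look for stacked reads. How PCR duplicates and multi-mapping reads were treated is not given in the sources used, so intervals and bounds cover counting error only. Positions, labels and coding exons are those of the files. The symbols of 9942 of the 12337 gene ends (80.6%) were found in a RefSeq gene table of ARS-UCD2.0, used for names only, and 9659 of these were protein coding.

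The members and the gene lists were chosen with earlier results of these data known. Windows of a label were joined across nested labels and otherwise counted as separate genes, and 29 windows that run over a chromosome's end were left out. The middle is the gene's own middle window. Tests were run with R 4.3.3, edgeR 4.0.16 (quasi-likelihood test, Benjamini-Hochberg adjustment) and DESeq2 1.42.0, and in Python 3.11.15. Windows that reached 1 CPM in 3 or more of the 6 libraries were compared by age with TMM factors and the animal as a block, with 2 residual degrees of freedom. Positions were compared per gene on counts summed over the libraries of an animal, with the animal as a block, library size only and a mean of at least 0.5 CPM per window. Calls needed an FDR below 0.1 and a fold of at least 2. SE is the log2 difference divided by the root of F. In the age test F rests on a dispersion shared over windows, with 177.6 prior degrees of freedom, so SE and p do not measure the spread between animals. The steps were tested on simulated data.

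The pairing comes from the animals. Deviations of libraries from the mean of their age correlated at 0.251, 0.496 and 0.708 within animals 1, 2 and 3. Depth of 19.9 to 43.6 M counted reads left a median of 5 to 17 reads in a last window, which limits calls in single windows. Genes named are, by rule, the called age windows and, among called genes with the same sign in all 6 libraries, those with the largest differences. These are the 8 largest from the middle in each direction, 5 from windows 4 to 6 past the end and 3 for the first 2 past the end. The 5 highest last windows and up to 4 called members of each of 7 lists were also named. Of the genes higher at the end than in the middle, 1 is not reported here. Alternatives were other tests, scalings, filters, thresholds, no block, leaving out each animal, longer genes, and genes without extreme windows or stacked reads.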

Additional observations from a re-analysis of the deposited data

How the results depend on the processing

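None of the results varied here reversed, and 64 of 92 values kept their direction and stayed within 1.5 times the reported count or within 1 SD. The means of the first 2 windows past the end against the fourth to sixth were not among these values. As given above, they turned from higher to lower with the highest 1% of windows kept. Windows called by age numbered 12 with no fold threshold, 3 for labels covering 10 or more windows, 3 with DESeq2, 3 with TMM factors over all windows, 4 at 2 CPM, 0 without a CPM filter (412 at an edgeR p below 0.05 before adjustment) and 0 with no replicate block (80), and between 1 and 98 when an animal was left out. Genes called between end and middle numbered 7352 without a filter, 2359 for 10 or more windows, 1498 without stacked reads, and, as choices made after the data were seen, 1349 with a coding exon in both windows and 484 with one in neither. Against windows 4 to 6 past the end they numbered 2415 at 0.2 CPM, 3304 without a filter and 316 without stacked reads, and for the first 2 windows past the end 3345, 4624 and 525, with 1419 for 10 or more windows. The test of the difference by age called 0 to 1 genes when an animal was left out. The mean end minus middle (0.0857 RPKM) was 0.0261 RPKM by medians, 0.38 on the log2(RPKM + 0.05) scale and 0.140 RPKM over counted reads, and end minus windows 4 to 6 (0.108 RPKM) was 0.0177, 0.44 and 0.176. The causes were not tested, beyond fewer genes or samples where an alternative removes them. The replicate block, by animal, changed no position count by over 1.5 times (3883, 1557 and 2233 calls without it). Leaving out windows with a second label was not run, since each holds 1 label. Depth limits calls in single windows.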
